A study of Mus musculus with 9 samples.

Results

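AIM2-like receptors are cytosolic and nuclear proteins of the interferon-inducible Ifi200 family that recognise double-stranded DNA. In the mouse their genes lie side by side on chromosome 1. The genes described are the rows of the footprint count table that carry the symbols Aim2, Ifi202b, Ifi203, Ifi204, Ifi205, Mndal or Pyhin1, and 6 of these 7 symbols were matched among the 36410 rows of the table. Pyhin1 is not analysed under that name. The RefSeq table gives Ifi209 as the current symbol of that locus, and the Ifi209 row held at most 2 fragments in any library.

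The study compared ribosome-protected fragments in 3 immortalized cell lines (STHdh) made from embryonic mouse striatum, labelled C57/BL6. Control cells (STHdhQ7/Q7) carry knock-in Htt exon 1 with 7 glutamines on both alleles. HD-het cells (STHdhQ7/Q111) carry 7 glutamines on 1 allele and 111 on the other, and HD-homo cells (STHdhQ111/Q111) carry 111 on both. Each line gave 3 libraries from cells held for 10 min in cycloheximide, an inhibitor that stops elongating ribosomes, and fragments of 26 to 32 nt from the 80S monosome fraction were sequenced. Each genotype is represented by 1 line, so genotype and line cannot be told apart, and nothing in the labels says whether the 3 libraries of a line came from separate cultures. The p-values therefore measure the spread between these libraries, which may be technical. Library totals ran from 22504543 to 41888701 counts. Levels are counts scaled to library totals of 1e6 (CPM) with composition factors, and a count of 3, the limit that a count of 0 allows, stood for 0.0714 to 0.142 CPM depending on the library. This limit covers counting error only.

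The proteins of the family are built from a small set of modules. Most have a pyrin domain at the amino end, which binds other pyrin domains, and a HIN domain behind it, which binds the DNA backbone. AIM2 joins DNA to the adaptor ASC (gene Pycard) and through it to caspase-1 (Casp1), which matures interleukin-1 beta and interleukin-18 and cuts gasdermin D (Gsdmd), which then forms membrane pores. The protein of Ifi202b, p202, lacks the pyrin domain, has HIN domains only, and is known as a brake on AIM2. The protein of Ifi204, p204, is a nuclear regulator of growth and differentiation that also works with STING. The protein of Ifi205 is known from differentiating myeloid cells. Ifi203 and Mndal encode further nuclear members with a pyrin domain.

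On GRCm38.p6, 13 RefSeq genes of the family span 682 kb of chromosome 1. Aim2 opens the cluster at chr1:173349547-173466040, on the plus strand, in a RefSeq gene that overlaps Cadm3. Ifi204 (chr1:173747293-173767069), Mndal (chr1:173857215-173880382), Ifi203 (chr1:173920400-173942866), Ifi202b (chr1:173962569-173982844) and Ifi205 (chr1:174011998-174031755) all lie on the minus strand. Fragments from Cadm3 could add to Aim2 only if strand was not used in counting, and Cadm3 held 1 fragment in 1 control library and 0 in the other 8 libraries.

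The first coding bases show how the members relate. They encode the amino end, where the pyrin domain lies. Each sequence below is a stretch of 75 coding bases read from the RefSeq transcript with the longest coding sequence, shifted by whole codons against Mndal, with the bases that differ from Mndal in capitals.

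Mndal: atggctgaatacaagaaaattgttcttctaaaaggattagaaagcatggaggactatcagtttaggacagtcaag
Ifi203: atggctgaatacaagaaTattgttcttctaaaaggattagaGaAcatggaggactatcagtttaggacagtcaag
Ifi204: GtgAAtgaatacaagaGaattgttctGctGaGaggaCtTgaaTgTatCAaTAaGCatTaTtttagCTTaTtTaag
Ifi205: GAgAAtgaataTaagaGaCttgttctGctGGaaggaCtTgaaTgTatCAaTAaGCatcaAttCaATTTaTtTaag
Aim2: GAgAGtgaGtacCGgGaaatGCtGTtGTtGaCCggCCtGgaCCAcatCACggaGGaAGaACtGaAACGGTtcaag
Ifi202b: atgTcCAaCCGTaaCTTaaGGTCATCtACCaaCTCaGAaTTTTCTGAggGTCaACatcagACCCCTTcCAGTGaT

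Ifi203 differed from Mndal at 3 of these 75 bases, Ifi204 at 24, Ifi205 at 28 and Aim2 at 39. The start of Ifi202b, which encodes no pyrin domain, differed at 51.

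Shared letters bear on the counts, because a fragment of 26 to 32 nt that occurs in 2 genes cannot be placed in one of them. The longest run common to a pair of members was 182 bases, in the coding sequences of Mndal (bases 890 to 1071) and Ifi205 (bases 569 to 750). It is printed in capitals with 12 flanking bases in lower case on each side.

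Mndal: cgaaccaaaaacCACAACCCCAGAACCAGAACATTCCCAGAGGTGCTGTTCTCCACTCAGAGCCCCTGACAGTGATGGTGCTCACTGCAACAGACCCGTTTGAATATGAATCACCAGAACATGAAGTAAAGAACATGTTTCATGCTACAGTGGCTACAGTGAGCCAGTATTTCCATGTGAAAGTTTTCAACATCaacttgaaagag
Ifi205: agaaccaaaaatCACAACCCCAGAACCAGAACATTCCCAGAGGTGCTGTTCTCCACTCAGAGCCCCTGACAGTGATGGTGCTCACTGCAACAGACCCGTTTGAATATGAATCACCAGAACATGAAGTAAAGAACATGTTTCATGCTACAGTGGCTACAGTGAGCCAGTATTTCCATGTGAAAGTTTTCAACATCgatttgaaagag

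Of the 28-base windows of each coding sequence, 57.7% of Ifi205, 54.9% of Ifi204, 51.4% of Ifi203 and 46.9% of Mndal also occurred in a transcript of another gene. For Ifi203 most of these windows were shared with the pseudogene Ifi203-ps (45.7% of its windows), and 7.49% of its windows occurred in Ifi207 and 5.72% in Mndal. For Ifi202b the share was 2.67%. For Aim2 it was 7.90%, all with 1 other gene, Gm7871. How fragments that match several genes were counted is not given in the sources used here, so the values of Ifi203, Ifi204, Ifi205 and Mndal are uncertain by what their shared windows took or gave. Those of Aim2 and Ifi202b rest mostly on windows of their own.

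**Figure D1:**
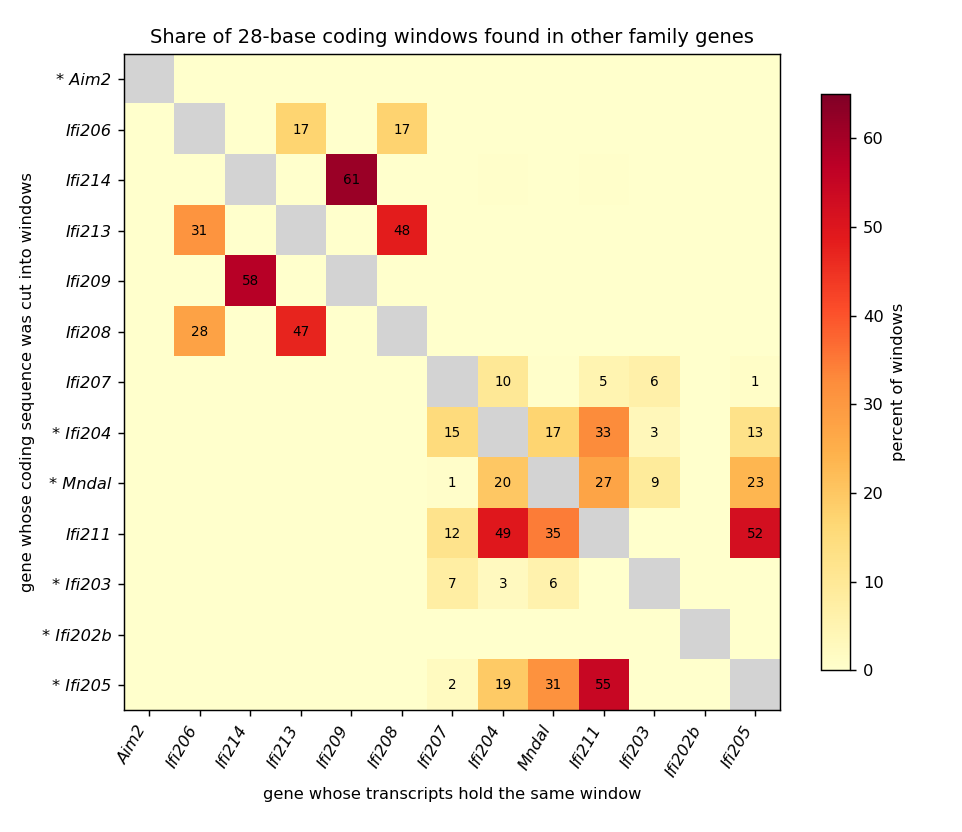
Share of the 28-base windows of each coding sequence (rows, in chromosome order, members marked with an asterisk) that occur in transcripts of another family gene (columns), in percent, with shares of 0.5 and above written in the cells and each gene against itself in grey. Ifi204, Mndal, Ifi205 and the neighbour Ifi211 share windows among themselves, while the rows of Aim2 and Ifi202b hold no share of 0.5 or above.

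Footprints on Aim2 were at or near 0 in control cells and were higher in HD-het and highest in HD-homo cells. The control libraries held 0, 1 and 0 fragments. The HD-het libraries held 8, 17 and 8, and the HD-homo libraries 36, 53 and 19. The 3 groups did not overlap. The mean was 0.383 ± 0.0820 CPM for HD-het and 1.29 ± 0.642 CPM for HD-homo libraries (SD, n = 3). Set against the floor of 3 counts per library, HD-het cells held at least 3.85-fold more Aim2 than control cells (edgeR adjusted p = 0.000717) and HD-homo cells at least 13.0-fold more (edgeR adjusted p = 1.97e-05). HD-homo cells exceeded HD-het cells by 1.71 on the log2 scale (SE 0.39, edgeR adjusted p = 0.00227), a 3.27-fold difference. Aim2 passed the filter on low counts only through the HD-homo libraries. In bulk lysates more cells of a kind and more footprints per cell cannot be told apart, and footprint counts combine the amount of mRNA with its translation. No mRNA libraries were analysed here.

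Ifi202b, the gene of the AIM2 brake, held most of the family's footprints and was higher in both mutant lines. Its control libraries lay at 35.2, 33.9 and 30.2 CPM. The HD-het libraries lay at 53.3, 61.2 and 47.5 CPM, and the HD-homo libraries at 45.5, 43.4 and 68.2 CPM. Every mutant library stood above every control library, and the 2 mutant lines overlapped. Ifi202b rose by 0.71 on the log2 scale in HD-het cells (SE 0.16, edgeR adjusted p = 0.00305) and by 0.66 in HD-homo cells (SE 0.16, edgeR adjusted p = 0.00675), or 1.63-fold and 1.58-fold. The difference between HD-homo and HD-het cells was -0.05, with a 95% interval from -0.41 to 0.31.

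Ifi204 differed little between the lines. Control libraries lay at 9.66, 11.3 and 9.03 CPM. HD-het libraries lay at 11.3, 12.3 and 13.6 CPM, and HD-homo libraries at 13.8, 11.4 and 14.1 CPM. The highest control library and the lowest library of each mutant line were almost level. The log2 difference from control was 0.30 in HD-het cells (95% interval 0.02 to 0.59, edgeR adjusted p = 0.0631) and 0.38 in HD-homo cells (95% interval 0.10 to 0.67, edgeR adjusted p = 0.0310). The HD-homo call was lost when either of control libraries 1 and 3, HD-het library 2 or either of HD-homo libraries 1 and 3 was left out (edgeR adjusted p from 0.0519 to 0.111), and also in a fit of the 6 control and HD-homo libraries alone (edgeR adjusted p = 0.0527). In HD-het cells the difference passed without control library 2 (edgeR adjusted p = 0.0357) or HD-homo library 2 (edgeR adjusted p = 0.0425).

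Ifi203 and Mndal moved together and set HD-homo cells apart. Ifi203 held 19, 30 and 20 fragments for control libraries, 8, 9 and 6 for HD-het and 86, 71 and 100 for HD-homo. Mndal held 14, 19 and 15 for control libraries, 10, 11 and 7 for HD-het and 63, 51 and 73 for HD-homo. For both genes the groups did not overlap in CPM, with HD-het lowest and HD-homo highest. HD-homo cells exceeded control cells 4.29-fold for Ifi203 (log2 2.10, SE 0.26, edgeR adjusted p = 5.29e-05) and 4.44-fold for Mndal (log2 2.15, SE 0.28, edgeR adjusted p = 8.12e-05). In HD-het cells Ifi203 fell by 1.39 on the log2 scale (SE 0.36, edgeR adjusted p = 0.00563). Mndal gave -0.60 there (95% interval -1.40 to 0.20, edgeR adjusted p = 0.172). Between the mutant lines, HD-homo exceeded HD-het cells 11.3-fold for Ifi203 (log2 3.49, SE 0.31, edgeR adjusted p = 2.02e-06) and 6.73-fold for Mndal (log2 2.75, SE 0.31, edgeR adjusted p = 1.21e-05).

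The counts of both rows kept close to 1 ratio within a line. There were 0.718 to 0.733 Mndal fragments per Ifi203 fragment in the HD-homo libraries and 0.633 to 0.750 in control libraries, against 1.17 to 1.25 in HD-het libraries, where both counts were 11 or fewer. Mndal is also listed as a synonym of Ifi203 in the RefSeq table, and how many fragments were counted in both rows was not tested. With both rows summed to 1, a setting chosen after seeing the data, HD-het cells fell by 1.02 on the log2 scale from control (edgeR adjusted p = 0.0128).

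Ifi203 and Mndal also share promoter letters. In the RefSeq promoter windows (250 bases before to 50 after the start site), the letters GAAA, any 2 bases and GAAA again, the core of the interferon-stimulated response element bound by ISGF3 and IRF factors, are in capitals. Both strands were searched. Ifi205 is printed beside them because it holds the same core at 2 places and followed another pattern.

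Ifi203 (chr1:173942443-173942742, minus strand): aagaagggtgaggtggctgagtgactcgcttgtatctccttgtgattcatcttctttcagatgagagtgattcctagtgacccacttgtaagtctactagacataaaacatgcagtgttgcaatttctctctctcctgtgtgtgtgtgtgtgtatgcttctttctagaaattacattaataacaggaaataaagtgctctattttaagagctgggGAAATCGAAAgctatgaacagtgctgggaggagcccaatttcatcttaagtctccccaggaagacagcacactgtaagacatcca
Mndal (chr1:173880138-173880437, minus strand): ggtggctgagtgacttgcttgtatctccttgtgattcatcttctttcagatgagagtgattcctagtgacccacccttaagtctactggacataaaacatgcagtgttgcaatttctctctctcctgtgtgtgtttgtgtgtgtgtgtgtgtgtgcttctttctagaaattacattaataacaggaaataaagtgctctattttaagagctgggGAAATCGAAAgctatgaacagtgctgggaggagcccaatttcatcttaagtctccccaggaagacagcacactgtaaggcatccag
Ifi205 (chr1:174031706-174032005, minus strand): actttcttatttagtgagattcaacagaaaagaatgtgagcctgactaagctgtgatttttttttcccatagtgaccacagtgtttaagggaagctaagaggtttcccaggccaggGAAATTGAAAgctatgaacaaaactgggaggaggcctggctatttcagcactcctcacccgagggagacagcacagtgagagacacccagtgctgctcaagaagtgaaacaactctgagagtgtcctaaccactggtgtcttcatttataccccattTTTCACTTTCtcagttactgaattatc

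The match of Ifi203 began 35 bases and that of Mndal 36 bases before the start site, within a run of 139 identical bases. RefSeq gives each of these 2 genes a second start, whose window held no match for Ifi203 and 1 for Mndal. The core occurred in 3 of the 5 members with a promoter window (Ifi203, Mndal and Ifi205), in 9 of 12 family genes with one, and in 3.44% of all 32851 promoter windows. The window of Aim2 held none. Ifi204 has no window in the table used.

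Ifi205 was the only member that was higher in HD-het cells and not in HD-homo cells by the test. Control libraries held 25, 43 and 38 fragments and HD-homo libraries 30, 28 and 44. The HD-het libraries held 84, 103 and 64, and their lowest CPM (2.83) exceeded the highest of the other 6 libraries (1.95). HD-het cells exceeded control cells 2.66-fold (log2 1.41, SE 0.28, edgeR adjusted p = 0.00109). HD-homo cells lay lower than HD-het cells by a log2 difference of -1.27 (SE 0.28, edgeR adjusted p = 0.00180). Against control, HD-homo cells gave 0.14, with a 95% interval from -0.52 to 0.81.

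**Figure D2:**
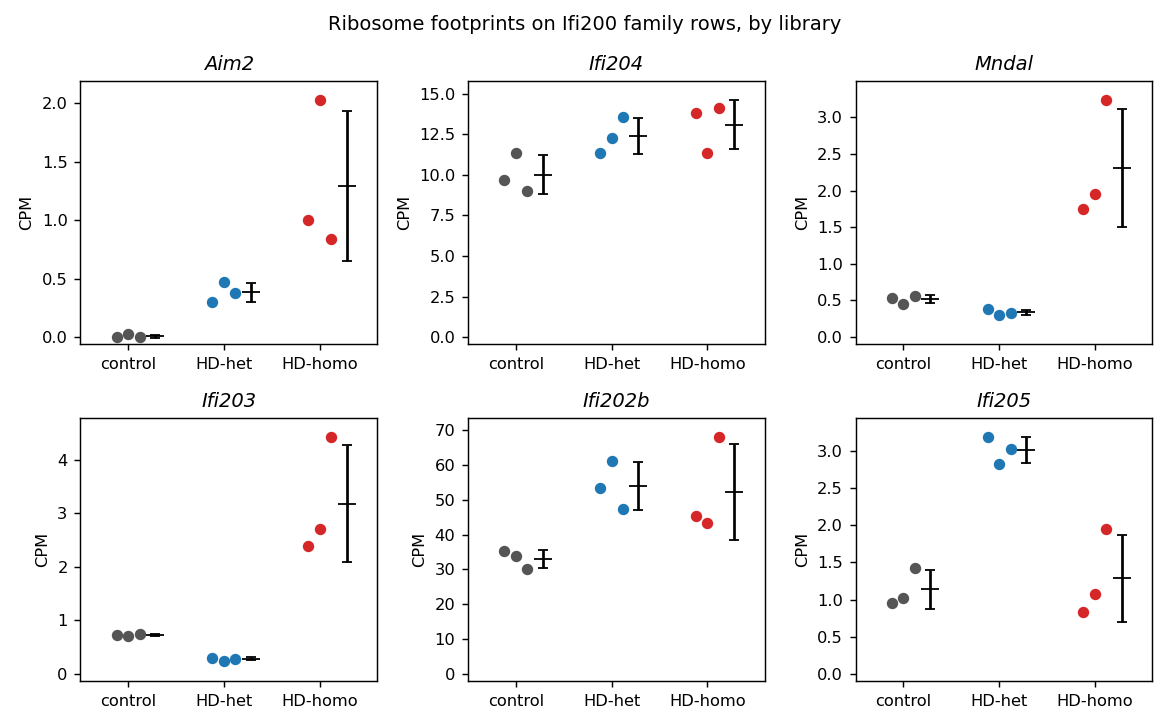
CPM of each member (panels, each with its own linear axis from 0) in the 3 libraries of each line (points, left to right in replicate order), with mean ± SD beside them. Aim2 climbs from control to HD-homo, Ifi203 and Mndal stand high in HD-homo alone, Ifi205 stands high in HD-het alone, and Ifi202b and Ifi204 vary least.

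The members thus fell into several patterns across the lines, which are best read against how many genes differed between the lines at all. In HD-het against control cells, 3 of 6 tested members were called higher (Aim2, Ifi202b, Ifi205), where 31.0% of 12678 tested genes were, and 1 was called lower (Ifi203), where 29.1% were. In HD-homo against control cells, 5 of 6 were called higher (Aim2, Ifi202b, Ifi203, Ifi204, Mndal), where 23.3% of genes were, and 0 lower, where 22.3% were. The call of Ifi204 was the one lost under several settings, which left 4 of 6. In HD-homo against HD-het cells, 3 were called higher (Aim2, Ifi203, Mndal), where 34.6% were, and 1 lower (Ifi205), where 32.8% were. The libraries of the 2 groups did not overlap for 6, 5 and 4 of the 6 members in these comparisons, against 71.2%, 55.5% and 69.5% of all tested genes. Aim2 is in these counts although it passed the filter only where it was high. The median log2 fold change of the 6 rows was 0.50, 1.38 and 0.90, beside 0.02 over all tested genes in each comparison. Ifi203 and Mndal, which are listed as synonyms, enter these counts and medians as separate rows. Both are among the 5 and among the 3 called higher in HD-homo cells. How far they hold the same fragments was not tested, so these counts and medians may weigh 1 signal more than once. Both comparisons with control share the same control libraries.

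**Figure D3:**
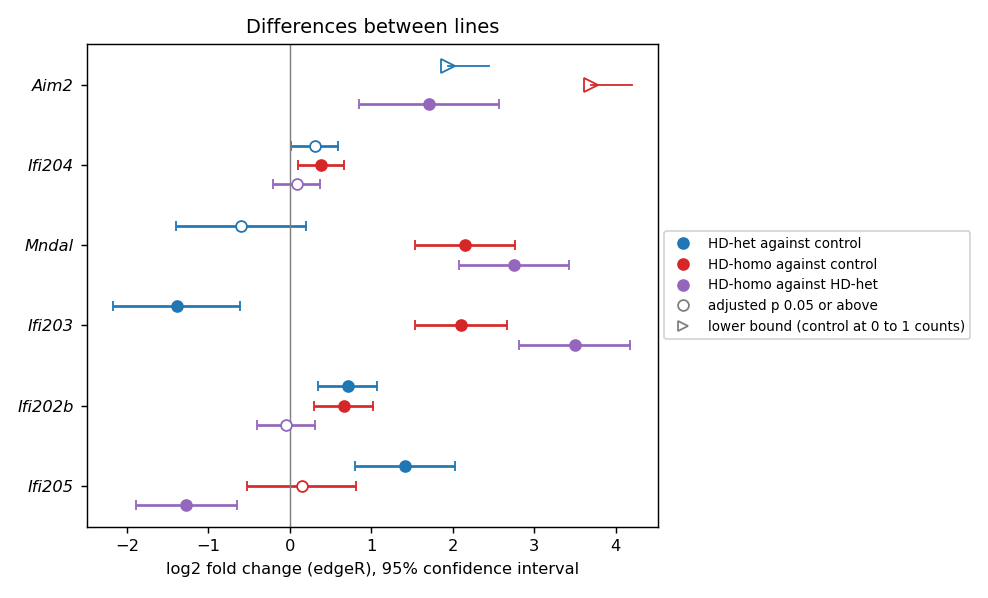
log2 fold change of each member with its 95% confidence interval in the 3 comparisons of lines (colours). Filled points passed the threshold, open points did not, and open triangles are the lower bounds of Aim2 against control libraries that held 0 to 1 fragments. Only Ifi203 lies on opposite sides of 0 in the 2 mutant lines with both points filled.

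Levels of different genes were compared per coding length only. Coding length was not corrected for windows shared with other genes, 46.9% to 57.7% for Ifi203, Ifi204, Ifi205 and Mndal. The place of these genes in the order, also against Aim2, is uncertain to that extent. In control cells the order in CPM per coding kilobase was Ifi202b (24.7 ± 1.95), Ifi204 (5.38 ± 0.644), Ifi205 (0.935 ± 0.211), Mndal (0.320 ± 0.0360), Ifi203 (0.279 ± 0.00758) and Aim2 (0.00744 ± 0.0129, 1 fragment in all; SD, n = 3). The ranges of Mndal and Ifi203 overlapped, and the other neighbours were apart. In HD-het cells the order was Ifi202b (40.3 ± 5.12), Ifi204 (6.67 ± 0.599), Ifi205 (2.48 ± 0.147), Aim2 (0.360 ± 0.0770), Mndal (0.209 ± 0.0241) and Ifi203 (0.106 ± 0.0109), with no overlap between neighbours. In HD-homo cells Ifi202b (39.1 ± 10.3) and Ifi204 (7.04 ± 0.817) led, and Mndal (1.43 ± 0.499), Ifi203 (1.22 ± 0.420), Aim2 (1.21 ± 0.603) and Ifi205 (1.06 ± 0.484) overlapped one another. Aim2 stood last in control cells and among 4 genes of overlapping range in HD-homo cells. Summed over the 6 rows the family reached 45.5 ± 3.08 CPM in the control line, against 70.4 ± 6.25 for HD-het and 73.5 ± 16.7 for HD-homo, and Ifi202b gave 72.7%, 76.5% and 70.9% of the counts.

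**Figure D4:**
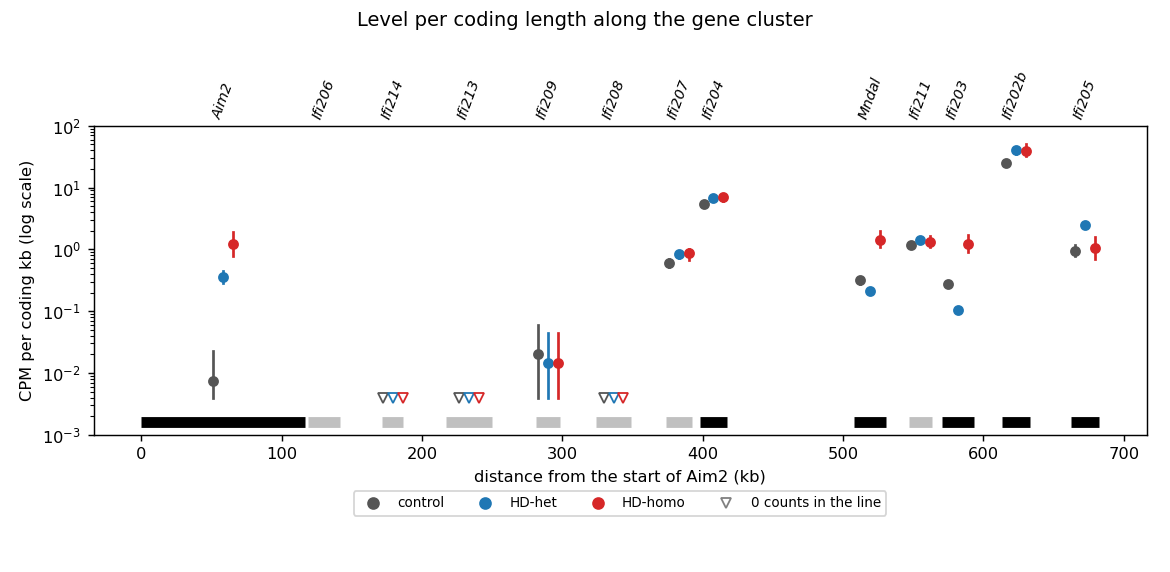
Mean CPM per coding kilobase (log axis) of the family genes with a row, placed by their distance in kilobases from the start of Aim2, for the 3 lines (colours). Lines through the points span the libraries and stop at the lower end of the drawn range, open triangles mark 0 counts, and bars at the base mark the genes (members black, others grey, Ifi206 has a bar and no point). The stretch from Ifi207 to Ifi205 carries most of the footprints, while Ifi214, Ifi213 and Ifi208 stand at 0.

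Of 10 further rows of the family, 4 passed the filter, namely Ifi207 and its older symbol AI607873, and Ifi211 and its older symbol Mnda. Of these, AI607873 rose in HD-het cells against control (log2 0.57, SE 0.19, edgeR adjusted p = 0.0246), and Ifi207, whose row holds nearly the same counts, gave 0.47 (edgeR adjusted p = 0.0648). In HD-homo cells the edgeR adjusted p of the 4 rows ran from 0.0725 to 0.545. Ifi208, Pydc3, Ifi213 and Ifi214 held 0 fragments in every library, and Pydc4 at most 2. Ifi211, which shares 54.5% of the windows of Ifi205, gave 0.26 in HD-het cells (SE 0.20, edgeR adjusted p = 0.265), where Ifi205 rose by 1.41.

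The partners of AIM2 were unevenly present. The adaptor gene Pycard held at most 1 fragment per library in all lines, and Il1b, which encodes the main inflammasome substrate, held 0. Casp1 held 0, 1 and 2 fragments for control libraries, 18, 43 and 28 for HD-het and 0, 0 and 0 for HD-homo. Casp1 passed the filter on low counts only through the HD-het libraries, where it was high. HD-het cells held at least 10.7-fold more than control cells (edgeR adjusted p = 9.25e-05) and HD-homo cells at least 9.63-fold less than HD-het cells (edgeR adjusted p = 3.69e-05). The line with the most Aim2 footprints thus held 0 fragments of Casp1. Gsdmd fell by 0.34 on the log2 scale in HD-het cells (SE 0.12, edgeR adjusted p = 0.0299) and rose by 0.35 in HD-homo cells (SE 0.12, edgeR adjusted p = 0.0289). Il18 rose in both, by 0.73 (SE 0.20) and 0.80 (SE 0.20) on the log2 scale.

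Of 12 tested genes of the inflammasome list, where gasdermin E has a row under Gsdme and under its older symbol Dfna5, 6 were higher and 3 lower in HD-het against control (median log2 0.44), and 7 were higher and 0 lower in HD-homo cells (median 0.64 over the 11 with counts above the floor in either line). Both rows of gasdermin E, which name 1 gene, are among the 6 and among the 7 higher. Of all tested genes, 31.0% were higher and 29.1% lower in HD-het cells, and 23.3% and 22.3% in HD-homo cells, so the 3 of 12 lower in HD-het cells lay near the share over all genes. Il1rn, which encodes the interleukin-1 receptor antagonist, rose by 2.41 (SE 0.47) and 7.55 (SE 0.33) on the log2 scale. Il1r1, its receptor, rose by 2.00 (SE 0.12) and 1.96 (SE 0.12).

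Other DNA sensors were counted in the same way. Cgas, the enzyme that makes cGAMP on DNA, held 0, 2 and 0 fragments for control libraries, 57, 77 and 35 for HD-het and 1311, 1187 and 1097 for HD-homo. Against control the bounds were 19.9-fold in HD-het and 437-fold in HD-homo cells, both higher. Its older symbol Mb21d1 has a row too, with bounds of 7.00-fold and 187-fold. Of 16 tested rows of this list, 4 were higher and 5 lower in HD-het cells (median log2 -0.05, with Xrcc6 at -0.88 and Tmem173, the gene of STING, at -0.78 the lowest), counts near the 31.0% and 29.1% of all tested genes, and 2 of the 4 are Cgas and Mb21d1, which name 1 gene. In HD-homo cells 8 were higher and 3 lower (median 0.26, with Lrrfip1 at -0.62 and Irf3 at -0.58 the lowest), beside 23.3% and 22.3% of all genes. Cgas and Mb21d1 are again 2 of the 8.

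Signalling from the interferon receptors is known to induce many Ifi200 genes. Of 14 tested genes of the interferon receptor list, 5 were higher and 2 lower in HD-het against control (median log2 0.36), and 8 were higher and 1 lower in HD-homo cells (median 0.50). The 5 of 14 higher in HD-het cells lay near the 31.0% of all tested genes called higher there, where 29.1% were called lower. For HD-homo against control, 23.3% of all tested genes were called higher and 22.3% lower. The median log2 fold change over all tested genes was 0.02 for each mutant line against control. Irf9, a subunit of the transcription factor complex ISGF3, and Irf7, which amplifies the interferon response, rose in both mutant lines, and HD-homo exceeded HD-het cells for each by the test. Irf9 rose by 1.75 (SE 0.20) and 3.47 (SE 0.19) and Irf7 by 2.49 (SE 0.47) and 5.04 (SE 0.39) on the log2 scale, HD-het first and HD-homo second. Usp18, a brake on the receptor, rose by 8.37 (SE 0.79) in HD-homo cells, a fitted value against control counts of 4, 0 and 0. It is among the 8 higher although it passed the filter on low counts only through the HD-homo libraries, where it was high. Socs1, another brake, fell by 1.53 (SE 0.32) and Irf1 by 0.62 (SE 0.16) in HD-het cells, and Ifngr1 fell by 0.61 (SE 0.18) in HD-homo cells. The part of these genes in the members' differences was not tested.

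**Figure D5:**
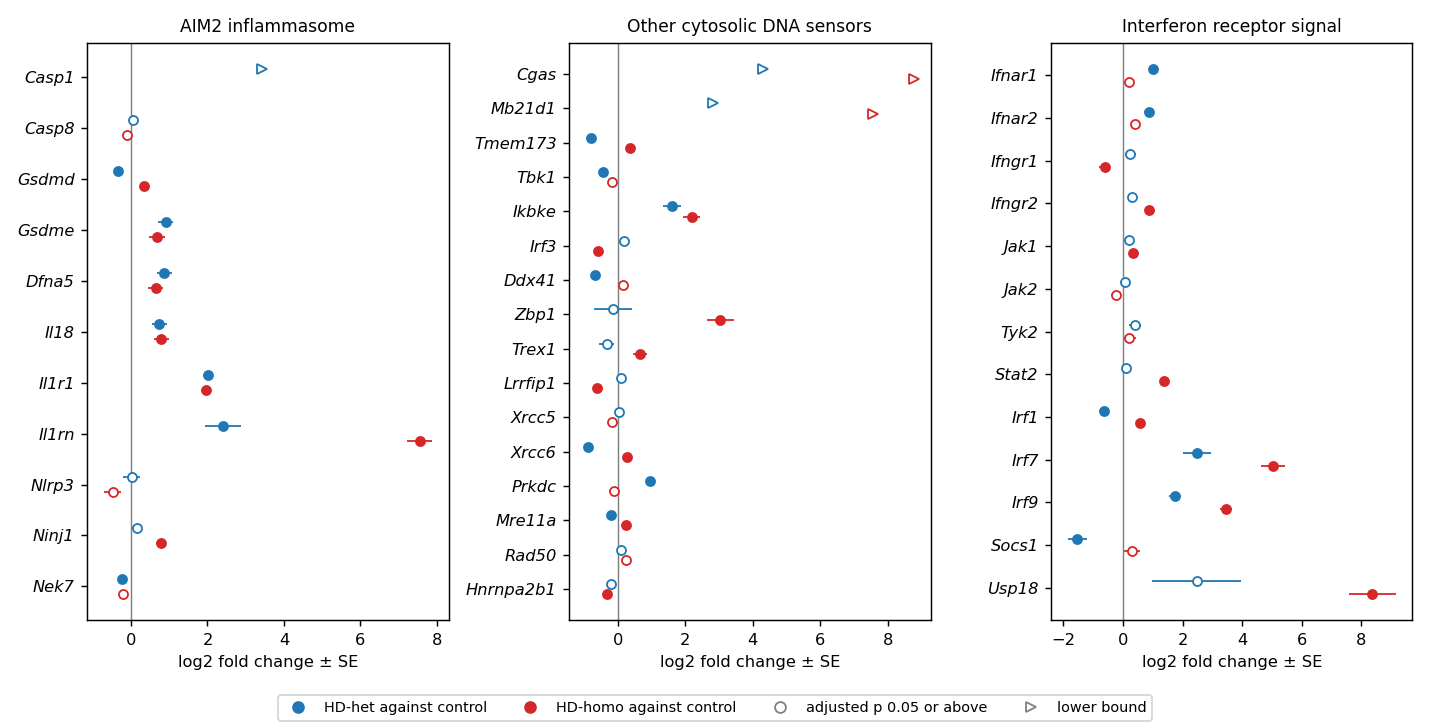
log2 fold change ± SE against control of tested rows in the lists of the AIM2 inflammasome, other cytosolic DNA sensors and interferon receptor signal, for HD-het and HD-homo cells (colours). Open points did not pass the threshold, open triangles are lower bounds, and a gene at or under 3 counts in both lines has no point. Not every row of the lists is drawn. Il1rn, Cgas, Irf7, Irf9 and Usp18 lie further from 0 for the HD-homo line than for the HD-het line. The Usp18 points are fitted values against control counts of 4, 0 and 0.

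Markers of other cell types were read in the same libraries. Among 12 myeloid markers, Cx3cr1 and Tyrobp held 0 fragments in all libraries and Ptprc 1 to 8. The summed level of the list ran from 6.77 to 7.56 CPM in control libraries, from 6.79 to 12.6 in the HD-het and from 12.3 to 13.9 in the HD-homo libraries, and its part in the members' differences was not tested. Of the 3 myeloid markers tested, Cd14 (log2 1.17) and Csf1r (log2 1.62), which other cells also express, were higher in HD-homo cells against control. Cd68 gave 0.06 there (edgeR adjusted p = 0.906). In HD-het cells Cd68 was higher (log2 1.09, edgeR adjusted p = 0.0109) and Cd14 lower (log2 -0.53, edgeR adjusted p = 0.00439), and Csf1r gave 0.17 (edgeR adjusted p = 0.722). Cd14, with a mean of 9.24 CPM, gave most of the HD-homo sum. Cd68 stood at 8.46 CPM in HD-het library 3, against 3.38 and 3.74 CPM in the other HD-het libraries. P2ry12, a microglial gene below the filter, held 28 fragments in all control libraries and 2 in all HD-homo libraries, at least 2.61-fold lower. Each of the 6 lymphocyte markers held 3 or fewer fragments in every library.

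The 6 glial markers summed to between 2.11 and 3.74 CPM in control libraries, 1.59 to 2.93 in the HD-het and 11.8 to 14.3 in the HD-homo libraries, the line in which Aim2, Ifi203 and Mndal were highest. Slc1a3, an astrocyte glutamate transporter, rose by 2.81 on the log2 scale in HD-homo cells (SE 0.27). With a mean of 11.7 CPM there, Slc1a3 gave most of the HD-homo sum. Mbp, a myelin gene below the filter, was at least 3.93-fold higher, while Gfap gave -0.24 (edgeR adjusted p = 0.410) and Aqp4 and Mog held 0 in every library. The endothelial list summed to between 1.86 and 2.32 CPM in the HD-het libraries and 0.382 to 1.06 in the other 6. Its 1 tested gene, Kdr, was 3.98-fold higher in HD-het against control cells (edgeR adjusted p = 0.000554), the line in which Ifi205 was highest. Kdr, with a mean of 1.75 CPM, gave most of the HD-het sum. The other listed genes were below the filter, and none had HD-het libraries apart from the control ones. Cdh5 averaged 0.327 CPM for control libraries and 0.198 for HD-het. Pecam1 was found only in the HD-homo line, at 2 to 5 fragments per library. Tek held 4 or fewer fragments and Cldn5 held 0 in every library. The part of these lists in the members' differences was not tested.

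Of 10 striatal neuron markers, Drd1 and Drd2 held 0 in every library, whereas Ppp1r1b, the gene of DARPP-32, ran from 6.42 to 16.1 CPM for control, 3.30 to 6.38 for HD-het and 4.06 to 15.6 for HD-homo. Penk, the enkephalin gene, lay at 1.42 ± 0.556, 0.824 ± 0.158 and 2.92 ± 1.16 CPM in the same order (SD, n = 3). Pde10a ran the other way, at 0.582 ± 0.0532, 1.14 ± 0.139 and 0.303 ± 0.225 CPM. So did Tac1, below the filter, with means of 0.0776, 0.214 and 0.0313 CPM. Of 6 tested precursor markers, 2 were higher and 4 lower in HD-homo against control cells, beside 23.3% and 22.3% of all tested genes. In HD-het against control cells 2 were higher and 3 lower, beside 31.0% and 29.1%. Vim, a marker of precursors and many cultured cells, lay between 5977 and 9317 CPM. Nes lay at 7.01 ± 0.611 CPM in HD-homo cells against 399.5 ± 82.6 in control cells, while Dlx1 (log2 0.56) and Dlx2 (log2 1.10) were higher. Sox2 fell by 4.47 on the log2 scale in HD-homo cells (SE 0.16). In HD-het cells Nes rose by 1.44 (SE 0.14) and Sox2 fell by 0.59 (SE 0.13).

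The genes whose log2 CPM followed each member most closely over the 9 libraries are given as a description, since the points share 3 lines. Aim2 was matched by Tbx15 (Pearson r = 0.992), Arnt (0.989) and Ptpn13 (0.988). Ifi203 was matched by Terf2 (0.993) and Psmg1 (0.992), and Mndal by Apol9a (0.988), Apol9b (0.988) and Rtraf (0.988). Apol9a averaged 0.671 CPM in control libraries, 0.272 for HD-het and 20.5 for HD-homo, the low point and the peak that Mndal had too. Ifi205 was matched by Cmtm3 (0.981), Gabrb2 (0.974) and Crem (0.972), Ifi202b by Hmox1 (0.951), Rasl11a (0.951) and Ppp1r3f (0.948), and Ifi204 by Zfp869 (0.958), Tmem39a (0.957) and Zfp874a (0.954). Among the members themselves, r was 0.981 for Ifi203 with Mndal and between -0.59 and 0.76 for the other pairs.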

How the data were processed

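For each library the authors deposited a column of raw footprint counts by gene symbol, neither normalized nor pooled. Per the submitters' processing notes, cutadapt, Bowtie 1.0.1 and build mm10 were used. The counting program, the annotation, the use of strand and the handling of fragments that match several genes are not given in the sources used here.

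All 9 columns were matched to libraries by name and grouped by the line in the titles. Of 36410 rows, 19597 held 0 in every library. Rows were filtered with filterByExpr by line (12678 left). There were 26 rows whose symbol had turned into a date, which were not named. Counts were scaled with TMM and fitted in edgeR 4.0.16 under R 4.3.3 (quasi-likelihood F test) on line means over all 9 libraries, with Benjamini-Hochberg adjustment over all tested genes at 0.05. SE is the log2 fold change over the root of F. The test was checked on simulated counts. Alternatives were other scalings, DESeq2 1.42.0, other filters, 6-library fits, a replicate block, each library left out, and a summed row. A group whose libraries all held 3 or fewer counts gives a bound against 3 counts per library.

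Coding sequences and gene positions came from RefSeq on GRCm38.p6, read from the genome for the longest curated transcript. The 28-base windows were looked up in GENCODE M21 transcripts of the same build. The planned comparison of protein sequences was made on coding bases in place of residues. Gene roles are background. The members and gene lists were chosen with earlier results of these data known. Named from the lists were the genes past the threshold with the 2 largest and 2 smallest log2 fold changes, with Pycard, Casp1, Gsdmd, Il1b, Il18, Cadm3, Irf9, Irf7 and Cgas whatever they showed. Some genes that these rules name are not reported here. Likeness was Pearson's r of log2 CPM (prior count 2), leaving out members and predicted genes, with up to 3 genes given for each member.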

Additional observations from a re-analysis of the deposited data

Results flagged for a closer look

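Ifi203 differed between the mutant lines in direction. It was lower in HD-het than in control cells (log2 -1.39, SE 0.36) and higher in HD-homo cells (log2 2.10, SE 0.26), with 3 of 3 libraries of each line on that side of every control library. The tested difference of HD-homo from HD-het cells was 3.49 on the log2 scale (SE 0.31, edgeR adjusted p = 2.02e-06). Of its 28-base coding windows, 51.4% occur in another gene's transcripts.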

How the results depend on the processing

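Of 284 log2 fold changes of single members recomputed under the alternatives, 272 kept their side of the threshold (5 of them, all small and called in neither case, changed sign), 7 were no longer called, 5 became called and no called value reversed. The 7 losses were all of Ifi204 in HD-homo against control cells, 4 of the gains were of Ifi204 in HD-het against control cells, and the fifth was Mndal once summed with Ifi203. Ifi204 in HD-homo cells gave edgeR adjusted p = 0.0527 with only the 6 libraries compared. With at least 10 counts in every library, 3 members could be tested, and 2 were called in HD-homo against control and 1 in HD-homo against HD-het cells (5 and 4 otherwise), because Aim2, Ifi203 and Mndal fell below that filter. With each library left out, 4 to 5 members were called in HD-het against control, 4 to 5 in HD-homo against control, and 4 in HD-homo against HD-het cells. DESeq2 and both other scalings called 4, 5 and 4. Fits of 6 libraries did not test Aim2 in HD-het against control cells. The same replicate numbers were not taken as pairs, since the deviations of same-numbered libraries correlated at -0.36 to 0.17 and 1 of 9 pairs exceeded 0.1. With the replicate block, 4, 4 and 4 members were called, and Ifi204 in HD-homo cells gave 0.38 on the log2 scale (edgeR adjusted p = 0.0562). Without control library 2, which held the only control fragment of Aim2, the fitted log2 fold changes of Aim2 against control moved from 4.74 to 6.45 (HD-het) and from 6.45 to 8.16 (HD-homo), and such fitted values are no bounds. With total counts in place of TMM, the 3 nearest genes were kept for Ifi202b and Ifi203 and 2 of 3 for each other member. Depth limits Aim2 in control cells to a bound, and the counts of HD-het libraries for Ifi203 and Mndal are 6 to 11.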
